A study of Mus musculus with 12 samples.

Results

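Genes of the unfolded protein response were followed across liver arrays of mice on a normal or a high-fat diet. The 8 listed genes were Ern1, Atf6, Xbp1, Atf4, Ddit3, Trib3, Asns and Herpud1. They were chosen by name, with earlier results of these data known, as were the gene lists used below. The counts set beside shares of all probes are therefore not independent of the data. The platform table gave each of the 8 genes 1 probe, so 8 of 26423 probes and 8 of 19084 named genes are described here.

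The study gave PTFC, the total flavonoids of a citrus plant, to mice with diet-induced fatty liver and measured liver RNA in 4 groups of 3 arrays. All animals were male C57BL/6 mice, 6 in each group, fasted for 12 h before liver was taken. ND animals ate chow with 12.3% fat for 24 weeks and were 30 to 33 weeks old. The high-fat chow held 36.1% fat, with 2% cholesterol and 10% lard among its additions. The groups 16-week HFD (HFD16) and 24-week HFD (HFD24) ate it for 16 and 24 weeks and were 23 to 25 and 31 to 33 weeks old. The PTFC group ate it for 6 weeks alone and was then dosed by stomach tube for 18 weeks with 50 mg per kg daily, up to an age of 31 to 33 weeks. Every other group received saline in place of the extract. HFD16 animals were younger than all the others, and no ND animals of their age were measured. In HFD16 against ND, diet and age therefore cannot be told apart, nor can time on the diet and age in HFD24 against HFD16. Whether the 3 arrays of a group held RNA of separate animals is not stated, so each p-value reflects the spread among the arrays at hand, and that spread may be technical.

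The unfolded protein response is the signalling that follows when misfolded protein builds up in the endoplasmic reticulum (ER). The sensors in the ER membrane are the kinase and RNase IRE1 (Ern1), the kinase PERK (Eif2ak3) and ATF6 (Atf6), a transcription factor held in the membrane until it is cut. IRE1 splices the Xbp1 mRNA so that it encodes an active transcription factor, and PERK slows translation in general while favouring that of ATF4 mRNA. ATF4, which other stress kinases can also induce, acts with CHOP (Ddit3) on genes of amino acid supply and cell death, and ATF6 and XBP1 act on ER chaperones and on the machinery that degrades ER proteins. Hepatocytes secrete large amounts of protein, and this response is much studied in fatty liver. The arrays measured mRNA amounts, so they report neither Xbp1 splicing nor the activity of ATF4 and ATF6 protein.

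Among the 7 promoters at hand, those of Herpud1, Asns and Trib3 held a searched motif. These are also the 3 members that passed the test in at least 1 comparison. Herpud1 passed as higher than ND, and Asns and Trib3 passed as lower. Whether the motifs bear on these differences was not tested. The promoter table of RefSeq (build GRCm38.p6) holds 250 bases before and 50 after each gene start, and it held 7 of the 8 members. Exact matches on both strands were sought for the ER stress element ERSE (ccaat, 9 free bases, ccacg), for ERSE-II (attgg, 1 free base, ccacg), for the UPR element UPRE (TGACGTGG) and for the C/EBP-ATF response element (TGATGNAAN) to which ATF4 binds. The narrower form TGATGCAA, which overlaps the last, was searched as well. Capitals mark the fixed letters of each match, and each sequence is given 5′ to 3′ on the strand of its gene.
Herpud1 promoter, chr8:94386279-94386428, plus strand, the 150 bases before the start: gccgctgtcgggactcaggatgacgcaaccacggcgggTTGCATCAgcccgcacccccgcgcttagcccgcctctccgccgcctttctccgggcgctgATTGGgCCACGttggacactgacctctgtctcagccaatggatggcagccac
Asns promoter, chr6:7693210-7693359, minus strand, the 150 bases before the start: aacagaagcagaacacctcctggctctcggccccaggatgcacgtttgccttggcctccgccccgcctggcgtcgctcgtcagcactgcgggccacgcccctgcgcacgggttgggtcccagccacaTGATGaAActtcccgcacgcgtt
Trib3, chr2:152344028-152344057, minus strand, bases 4 to 33 after the start: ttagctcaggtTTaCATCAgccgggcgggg
Herpud1 held ERSE-II from -52 to -42, where -1 is the base before the start. It also held the C/EBP-ATF element on the opposite strand from -113 to -105, which includes the narrower TGATGCAA from -112 to -105. Asns held the C/EBP-ATF element from -23 to -15 and Trib3 from 14 to 22 on the opposite strand. Of 32851 promoters in the table, 0.0365% held ERSE-II, 3.95% the C/EBP-ATF element, 0.895% its narrower form, 0.119% ERSE and 0.676% UPRE. A match says only that these letters occur there.

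Median intensity per array lay between 249 and 408. Values were compared after quantile normalization as log2(intensity + 1), the scale of every level and difference below unless deposited intensity is named. Deposited intensities of 6 members lay above the array median on all 12 arrays. Ern1 and Atf6 lay under the median on all 12, and Atf6 exceeded the 25th percentile of the array on 10. Each array's intensities were whole multiples of a step, which was 1.23 to 1.46 in ND and 0.675 to 1.12 in the other 9 arrays, so this scaling factor moved with the contrast of ND against the rest. On the authors' scale, without quantile normalization, the median of all probes shifted by -0.28 in HFD24 and -0.30 in HFD16 against ND and by 0.30 in PTFC against HFD24. The share of called probes that were higher was then 35.6% in place of 51.7% for HFD24 against ND, 28.7% in place of 52.9% for HFD16 against ND, 92.4% in place of 53.1% for PTFC against HFD24 and 67.4% in place of 41.5% for PTFC against ND.

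After 16 weeks of high-fat diet, Asns and Trib3, which are ATF4 target genes, were lower than in ND, by 4.5-fold and 2.3-fold, and Herpud1, an ER stress target, was 1.56-fold higher. After 24 weeks Asns was 4.22-fold lower than in ND, while Trib3 and Herpud1 did not pass the test. The sensors and transcription factors of the response, Ern1, Atf6, Xbp1, Atf4 and Ddit3, passed in none of the 5 comparisons. With PTFC on the high-fat diet no member passed against HFD24. The threshold was an adjusted p under 0.05 (limma over all probes, Benjamini-Hochberg). HFD16 and ND differed in age as well as in diet. For HFD16 against ND 3 of 8 members passed, where 16.3% of all probes did, and 6 had an unadjusted p under 0.05, against 32.5%. The arrays of 5 members did not overlap, against 34.6% of all probes, with Herpud1 and Atf6 higher (15.1% of all probes) and Asns, Trib3 and Atf4 lower (19.5%). For HFD24 against ND 1 of 8 passed, where 16.5% of all probes did, and 2 had an unadjusted p under 0.05, against 31.5%. The arrays of 2 did not overlap, against 32.5%, with Herpud1 higher (13.9% of all probes) and Asns lower (18.6%). With a covariate for the scaling step no member passed in either comparison, while the differences of the called members were larger in size. These comparisons share their ND arrays.

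**Figure D1:**
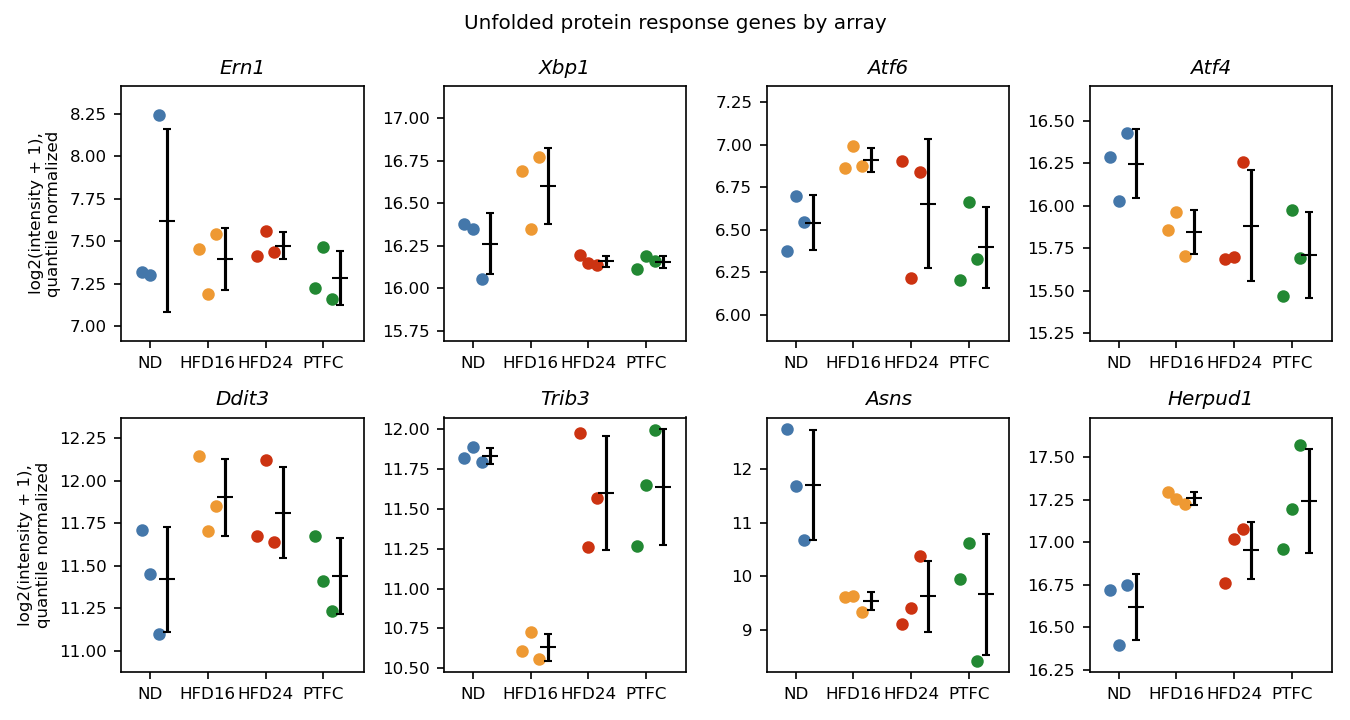
Level of each of the 8 genes on every array, as quantile normalized log2(intensity + 1), in 4 groups of 3 arrays; points are arrays, and the bar beside them gives mean and SD. Trib3 was at 10.56 to 10.73 on the HFD16 arrays and at 11.26 or above on all others, and Asns was highest on the 3 ND arrays.

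Asns encodes asparagine synthetase, which makes asparagine from aspartate and glutamine. Its deposited intensity was 6906, 3341 and 1516 on the ND arrays, 691, 828 and 572 on the HFD16 arrays, 440, 685 and 1382 on the HFD24 arrays and 1094, 1662 and 419 on the PTFC arrays. The ND arrays spread widely, and the lowest of them lay under the second PTFC array in deposited intensity. After normalization ND lay at 11.71 ± 1.03 (SD, n = 3), HFD16 at 9.54 ± 0.17, HFD24 at 9.63 ± 0.66 and PTFC at 9.67 ± 1.13. No ND array overlapped the arrays of any other group on that scale, the lowest ND array being at 10.68 and the highest of the others at 10.63. Asns fell by 2.17 on the log2 scale in HFD16 (SE 0.54, limma adjusted p = 0.0185) and by 2.08 in HFD24 (SE 0.54, limma adjusted p = 0.0206). In PTFC the difference from ND was of like size, -2.04 (SE 0.54), and did not pass (limma adjusted p = 0.0751). The PTFC group differed from HFD24 by 0.03, with a 95% interval of -1.13 to 1.20. The calls depended on single arrays. Without the first ND array the HFD24 difference was -1.56 (limma adjusted p = 0.101) and the HFD16 difference -1.66 (0.086), and without the second ND array they were -2.09 (0.061) and -2.18 (0.0522). The HFD24 call was also lost without its first array (-1.81, limma adjusted p = 0.0855) or its second (-1.97, 0.0577), and the HFD16 call when the third HFD16 array was left out (-2.07, 0.0638). With a covariate for the scaling step the differences were -2.26 and -2.39 (limma adjusted p = 0.144 and 0.241). Without the third ND array the PTFC difference from ND was -2.54 and passed (limma adjusted p = 0.036). Over all 22 alternatives the limma adjusted p ran from 0.00653 to 0.144 for HFD24, from 0.00754 to 0.241 for HFD16 and from 0.036 to 0.324 for PTFC, all against ND.

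Trib3 encodes a pseudokinase that ATF4 and CHOP induce and that restrains Akt signalling. Its deposited intensity was 3622, 3785 and 3426 on the ND arrays and 1416, 1761 and 1419 on the HFD16 arrays. On the HFD24 arrays it was 3734, 2430 and 3160, and on the PTFC arrays 2509, 3404 and 4211. The HFD16 arrays were the 3 lowest of the 12, and the other groups overlapped one another. Trib3 fell by 1.20 on the log2 scale in HFD16 against ND (10.63 ± 0.09 against 11.83 ± 0.05, SD, n = 3; SE 0.21, limma adjusted p = 0.00427). The call held in 21 of 22 alternatives, every array left out in turn included. The exception was the fit that took the scaling step into account (-1.35), where the limma adjusted p was 0.101, the highest of a span that began at 0.00295. HFD24 differed from ND by -0.23 (SE 0.21, limma adjusted p = 0.483) and PTFC by -0.20 (SE 0.21, 0.755). Trib3 was 0.97 higher in HFD24 than in HFD16 (SE 0.21, unadjusted p = 0.000481), and the arrays did not overlap, but this difference did not pass over all probes (limma adjusted p = 0.192). In that comparison 0 of 8 members passed, where 0.0227% of all probes did, 0.0114% in each direction. An unadjusted p under 0.05 was seen for 2 members (Trib3 and Xbp1), against 9.72% of all probes. The arrays of 3 members did not overlap, against 16.2% of all probes, with Trib3 higher (6.24%) and Xbp1 and Herpud1 lower (9.97%).

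Herpud1 encodes an ER membrane protein that takes part in the degradation of misfolded ER proteins. Its deposited intensity was 115607, 88774 and 111014 on the ND arrays, 153746, 147311 and 144960 on the HFD16 arrays, 111877, 124244 and 120259 on the HFD24 arrays and 128278, 163708 and 223189 on the PTFC arrays. All HFD16 and PTFC arrays lay above all ND arrays, and the PTFC arrays spread most. Herpud1 rose by 0.64 in HFD16 against ND (17.26 ± 0.04 against 16.62 ± 0.19, SD, n = 3; SE 0.15, limma adjusted p = 0.0149). The limma adjusted p was 0.0623 once the second ND array was dropped (0.53), 0.0501 on the authors' scale (0.51) and 0.179 with a covariate for the step (0.76), and it ran from 0.00992 to 0.179 over the alternatives. In PTFC against ND the difference was 0.62 (SE 0.15) and narrowly missed the threshold (limma adjusted p = 0.0546). With the first PTFC array left out it was 0.76 and passed (limma adjusted p = 0.0413, against up to 0.302 under other alternatives). In HFD24 against ND the difference was 0.33 (SE 0.15, limma adjusted p = 0.151), with groups that overlapped in deposited intensity and not after normalization. PTFC differed from HFD24 by 0.29, with a 95% interval of -0.03 to 0.62.

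Ddit3 encodes CHOP, the transcription factor linked to cell death under lasting ER stress. Its level was 11.42 ± 0.31 (SD, n = 3) in ND, 11.90 ± 0.22 in HFD16, 11.81 ± 0.27 in HFD24 and 11.44 ± 0.22 in PTFC. The ND arrays read 11.71, 11.45 and 11.10, the HFD16 arrays 12.15, 11.71 and 11.85, the HFD24 arrays 11.67, 12.12 and 11.64 and the PTFC arrays 11.68, 11.41 and 11.24. Each group on the high-fat diet overlapped ND, and PTFC overlapped HFD24. The difference from ND was 0.48 in HFD16 (SE 0.21, unadjusted p = 0.0392, limma adjusted p = 0.132) and 0.39 in HFD24 (limma adjusted p = 0.222). With arrays centred on their medians the HFD16 difference was 0.73 and passed (limma adjusted p = 0.0282, against up to 0.325 under other alternatives). PTFC lay 0.37 under HFD24 (95% interval -0.82 to 0.08, limma adjusted p = 0.303).

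Atf4 encodes the factor whose translation rises when PERK is active, so its mRNA is only a part of its control. The ND arrays read 16.28, 16.03 and 16.43, the HFD16 arrays 15.86, 15.96 and 15.71, the HFD24 arrays 15.69, 15.70 and 16.26 and the PTFC arrays 15.47, 15.98 and 15.69. HFD16 and PTFC lay under ND on all arrays, while the third HFD24 array lay among the ND arrays. The differences from ND were -0.40 in HFD16 (SE 0.18, limma adjusted p = 0.133), -0.36 in HFD24 (SE 0.18, limma adjusted p = 0.178) and -0.54 in PTFC (SE 0.18, limma adjusted p = 0.149). None passed, and each kept its sign under all 22 alternatives. Without the third HFD24 array the HFD24 difference was -0.56 and passed (limma adjusted p = 0.0481, against up to 0.43 under other alternatives).

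Xbp1 encodes the transcription factor that IRE1 activates by splicing, and the probe is not stated to separate the spliced form. The ND arrays read 16.38, 16.35 and 16.06, the HFD16 arrays 16.69, 16.35 and 16.77, the HFD24 arrays 16.20, 16.15 and 16.13 and the PTFC arrays 16.12, 16.19 and 16.16. HFD24 and PTFC lay within the range of ND, and 2 HFD16 arrays lay above all others. The HFD16 difference from ND was 0.34 (SE 0.13, unadjusted p = 0.0189, limma adjusted p = 0.0834), and without the second HFD16 array it was 0.47 and passed (limma adjusted p = 0.0385, against up to 0.276 under other alternatives). Xbp1 was 0.44 lower in HFD24 than in HFD16, with no overlap of the arrays (SE 0.13, unadjusted p = 0.00399, limma adjusted p = 0.301). PTFC differed from HFD24 by -0.0044 (95% interval -0.28 to 0.27).

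The members that encode sensors, Ern1 and Atf6, lay under the array medians. Ern1 read 118 to 272 in deposited intensity and Atf6 73.1 to 124, where the 25th percentiles of the arrays were 48.5 to 95.8. Ern1 was at 7.62 ± 0.54 (SD, n = 3) in ND, 7.40 ± 0.18 in HFD16, 7.47 ± 0.08 in HFD24 and 7.28 ± 0.16 in PTFC. The third ND array, at 8.24, stood above the 11 others, which lay at 7.16 to 7.56. No Ern1 difference passed, and the limma adjusted p of the 5 comparisons ran from 0.518 to 0.940. Atf6 was at 6.54 ± 0.16 in ND, 6.91 ± 0.07 in HFD16, 6.65 ± 0.38 in HFD24 and 6.40 ± 0.24 in PTFC. The HFD16 arrays of Atf6 lay above the ND arrays (0.37, SE 0.20, limma adjusted p = 0.216), but on the authors' scale the difference was -0.049, so no direction can be given.

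**Figure D2:**
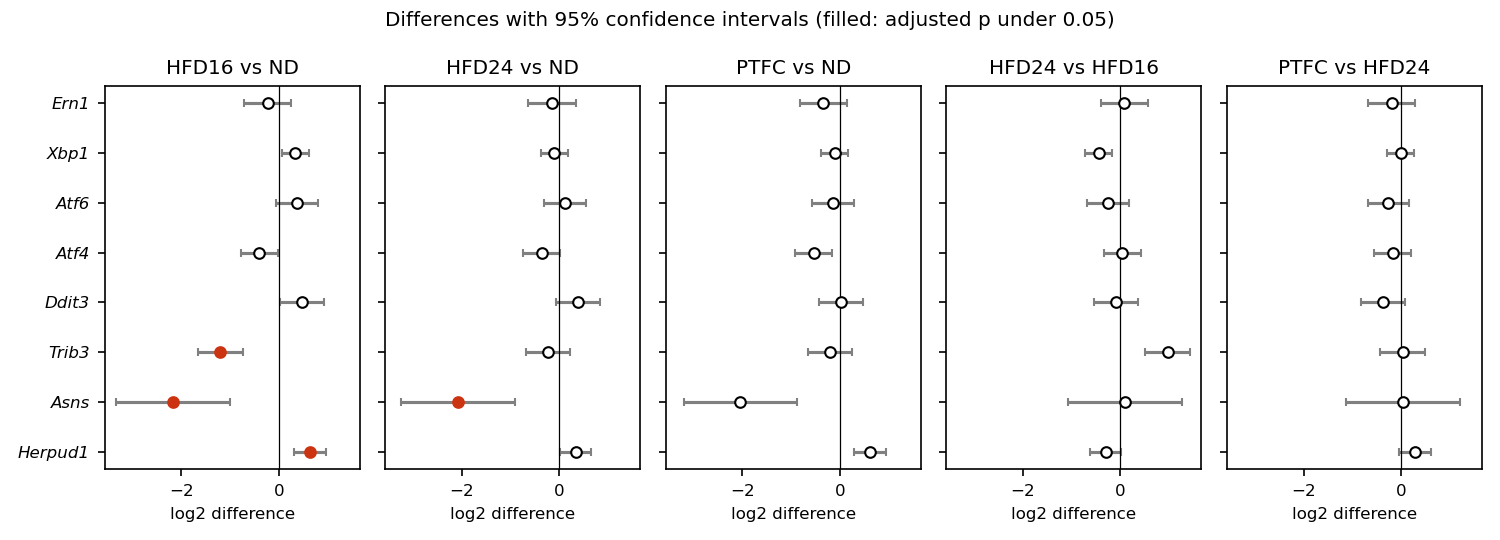
Differences of the 8 genes in each of the 5 comparisons on the log2 scale, first group minus second, with 95% confidence intervals from limma; filled points passed at an adjusted p under 0.05. The filled points are Asns, Trib3 and Herpud1 in HFD16 against ND and Asns in HFD24 against ND.

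The comparison of PTFC with HFD24 asks what the extract did on the same diet. None of the 8 members passed (5.78% of all probes did), none had an unadjusted p under 0.05 (24.3% of all probes), and the arrays of none were separate, against 30.9% of all probes. The differences lay between -0.37 for Ddit3 and 0.29 for Herpud1. The widest interval was that of Asns, and the narrowest that of Xbp1. In PTFC against ND 0 of 8 passed by limma, where 1.75% of all probes did, 3 members (Asns, Atf4 and Herpud1) had an unadjusted p under 0.05 (15.5% of all probes), and the arrays of the same 3 did not overlap, against 20.6% of all probes.

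Other genes of the pathway were taken from 5 lists, of which 107 of 113 genes had a probe, 99 of them not among the 8. Of 25 ER chaperones and folding enzymes, 6 rose in HFD16 against ND, none fell and 19 did not pass, where 8.64% of all probes were called higher. The median of the list was 0.41, against -0.05 over all probes, and the arrays of 17 of 25 did not overlap, 16 higher and 1 lower, against 34.6% of all probes, 15.1% higher and 19.5% lower. Sdf2l1, a partner of the chaperone BiP, rose by 1.77 (SE 0.23, limma adjusted p = 0.00112), and Calr, the lectin chaperone calreticulin, by 1.05 (SE 0.20, limma adjusted p = 0.00554). The other 4, named after their values were seen, were Pdia3 (1.15), Pdia6 (0.95) and Pdia4 (0.94), which are disulfide isomerases, and Hsp90b1, the chaperone GRP94 (0.53). Hspa5, which encodes BiP itself and was also picked after its values were seen, was at 0.34 and did not pass (limma adjusted p = 0.141). In HFD24 against ND 3 of 25 chaperone genes rose and none fell, where 8.5% of all probes were called higher, with Sdf2l1 at 1.23, Fkbp2, a prolyl isomerase of the ER, at 0.64 and Pdia4 at 0.75 and a list median of 0.21 against -0.07 over all probes. The count was 1 without the first ND, the second ND or the third HFD24 array and 1 with only the 2 groups compared. It was 0 with the step as a covariate (Sdf2l1 at 1.15, limma adjusted p = 0.0939, otherwise as low as 0.00114). Pdia4 did not pass without any 1 of 8 arrays, namely those of ND, those of HFD24, the third of HFD16 and the second of PTFC (limma adjusted p 0.0192 to 0.135 over all alternatives). Fkbp2 did not pass without the first or second ND array, the second HFD24 array or the third (0.00733 to 0.171). With only the 2 groups compared neither passed (limma adjusted p = 0.0705 for Pdia4 and 0.0515 for Fkbp2). With the replicate number as a block Pdia4 did not pass (limma adjusted p = 0.0631). In HFD16 the count was 4 to 8 in each of the 22 alternatives except the one with the step as a covariate. There it was 0, with Sdf2l1 at 1.66 (limma adjusted p = 0.0751, otherwise as low as 0.000409) and Calr at 0.72 (0.28, otherwise as low as 0.0031).

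Sdf2l1 read 2716, 2508 and 1706 in deposited intensity on the ND arrays, 7544, 9345 and 6727 on the HFD16 arrays, 4334, 4546 and 7650 on the HFD24 arrays and 3882, 3560 and 5274 on the PTFC arrays. Every array of the 3 high-fat groups lay above the ND arrays. The PTFC difference from ND was 0.81 and did not pass (limma adjusted p = 0.0962). That from HFD24 was -0.42 (limma adjusted p = 0.294).

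Among 21 measured genes of ER-associated degradation, 5 rose and 1 fell in HFD16 against ND (8.64% and 7.69% of all probes were called higher and lower), with a median of 0.08. Besides Herpud1 these were Derl2 at 0.90 (SE 0.19, limma adjusted p = 0.00838) and Edem1 at 0.74 (SE 0.17, limma adjusted p = 0.012), and, named after their values were seen, Derl3 at 1.46 and Syvn1, the ubiquitin ligase HRD1, at 0.77. Derl2 and Derl3 encode derlins, which help move proteins out of the ER, and Edem1 a lectin that marks misfolded glycoproteins. The 1 decrease, of Nploc4, did not pass without the first or second ND array, the second HFD16 array or the third, the second HFD24 array or any 1 of the PTFC arrays. It was also lost with arrays centred on their medians, without a trend in the prior variance and with the replicate number as a block. The same held with the step as a covariate and with only the 2 groups compared. The count of 5 was 3 without the first ND array, 2 without the second and 3 without any 1 of the HFD16 arrays or the first PTFC array. It was 3 on the authors' scale, 3 without a trend in the prior variance and 0 with the step as a covariate. In HFD24 against ND, Derl3 rose by 2.24 (SE 0.47, limma adjusted p = 0.00641) and passed in all 22 alternatives (limma adjusted p 0.0021 to 0.0456). Its deposited intensity was 583, 565 and 765 on the ND arrays, 1227, 6546 and 2825 on the HFD24 arrays, and 1263, 616 and 1597 on the PTFC arrays. The HFD24 arrays all lay above ND but differed severalfold among themselves. Derl3 was 1.56 lower in PTFC than in HFD24, which did not pass (SE 0.47, limma adjusted p = 0.0636). This difference was -0.97 without the second HFD24 array, and it passed with arrays centred on their medians (-1.76, limma adjusted p = 0.0268, against up to 0.175 under other alternatives). Nploc4, a cofactor of the segregase p97, fell by 0.65 in HFD24 (limma adjusted p = 0.0356) and did not pass without the first or second ND array, the third HFD16 array, the second HFD24 array or the third, with limma adjusted p of 0.136, 0.129, 0.0505, 0.0519 and 0.125. It also did not pass with arrays centred on their medians, the step as a covariate or only the 2 groups compared (limma adjusted p = 0.183, 0.435 and 0.0874).

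The list of sensors and transducers, which also holds 5 of the members, had 1 of 16 measured genes higher and none lower in HFD16 against ND, where 8.64% of all probes were called higher. This was Atf6b, a relative of Atf6, at 0.94 (SE 0.26, limma adjusted p = 0.0264). It did not pass with the third ND array left out (0.61), the second HFD16 array (0.74) or the third HFD16 array (1.03), at a limma adjusted p of 0.0502, 0.0958 and 0.0553, which ran from 0.00949 to 0.47 over the alternatives. In HFD24 against ND none of the 16 passed by limma. Creb3l2, at -0.74, Creb3l1, at 0.51, and Eif2ak3, the PERK gene, at 0.65, had an unadjusted p under 0.05 there, as had 31.5% of all probes. Of 13 measured eIF2alpha kinases, phosphatases and exchange factor subunits, none passed in HFD16 against ND, where 16.3% of all probes did. In HFD24 against ND 1 of 13 fell, where 7.96% of all probes were called lower. This was Ppp1r15a, which encodes the GADD34 subunit that reverses eIF2alpha phosphorylation (-0.62, SE 0.19, limma adjusted p = 0.041). It passed in 9 of 22 alternatives, with a limma adjusted p of 0.0162 to 0.163, and did not pass without any 1 of the ND arrays (0.141, 0.0769 and 0.0536), the first HFD16 array or the third (0.051 and 0.0563), the first or second HFD24 array (0.128 and 0.129) or the third PTFC array (0.0537).

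ATF4 and CHOP target genes went both ways under the high-fat diet. In HFD16 against ND 8 of 37 rose and 9 fell, where 8.64% and 7.69% of all probes were called higher and lower. In HFD24 against ND 7 rose and 4 fell, where 8.5% and 7.96% of all probes were. The list medians were -0.07 in HFD16 and 0.15 in HFD24. The genes with the smallest p in HFD24 were Aldh18a1, which makes proline precursors and rose by 1.72 (SE 0.27, limma adjusted p = 0.00168), Nupr1, a stress-induced chromatin protein, which rose by 2.30 (SE 0.40, limma adjusted p = 0.00254), the alanyl-tRNA synthetase gene Aars, at -0.89 (SE 0.15, limma adjusted p = 0.00234), and the death receptor gene Tnfrsf10b, at -0.59 (SE 0.14, limma adjusted p = 0.0113). Tnfrsf10b did not pass with the first ND array left out (-0.52, limma adjusted p = 0.0647, and 0.00525 to 0.145 over the alternatives). Leaving out 1 array lowered the counts most for the first ND array, to 3 higher and 2 lower in HFD16 and to 2 and 1 in HFD24. They were also over 1.5 times smaller in HFD24 without the second ND array (4 and 2), the first HFD24 array (4 and 2), the second (2 lower) or the third (3 higher), and in HFD16 without the second ND array (5 and 2), the third (5 higher), the first HFD16 array (3 lower), the second (3 higher), the third (5 and 3) or the first or second PTFC array (5 higher each). With the step as a covariate none passed in either comparison. Fgf21, a fasting hormone of the liver, fell by 1.78 in HFD16 against ND (SE 0.47, limma adjusted p = 0.0241). Chac1, which degrades glutathione, rose by 1.40 there (SE 0.38, limma adjusted p = 0.026). Both were named after their values were seen, and how each call fared with single arrays left out is not given here.

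**Figure D3:**
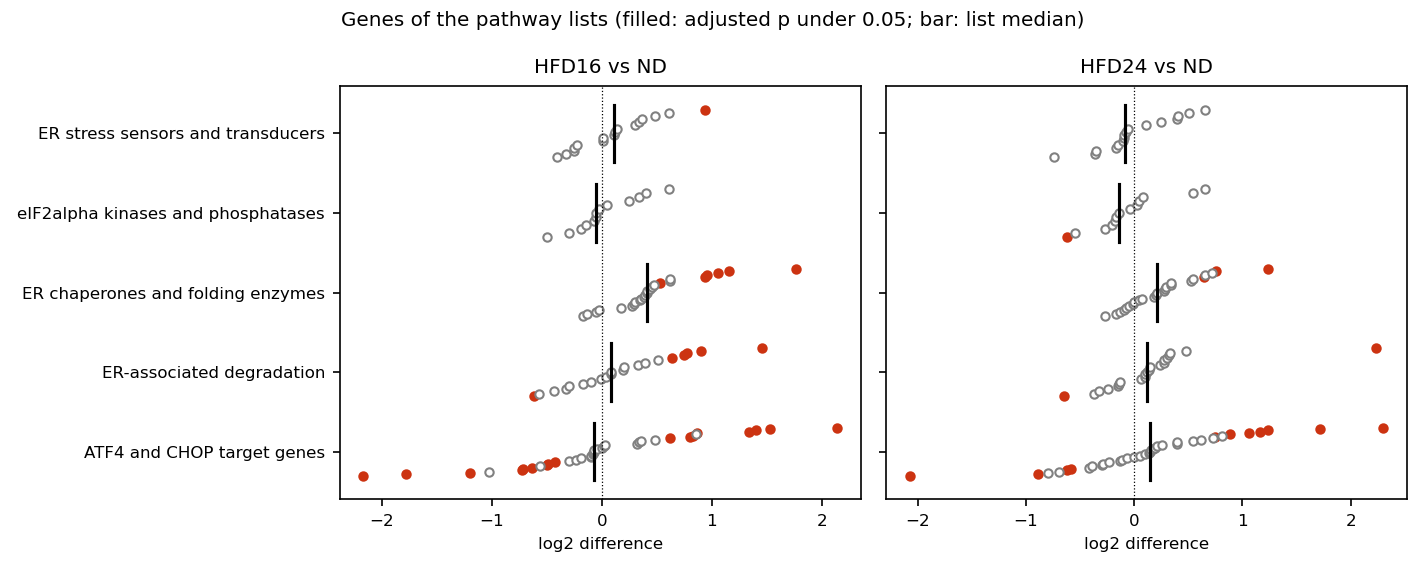
Log2 differences of the genes of 5 pathway lists in HFD16 and HFD24 against ND; each point is 1 gene, filled where the adjusted p was under 0.05, and the bar is the median of the list. In HFD16 the chaperone median was 0.41, and ATF4 and CHOP target genes spread from -2.17 for Asns to 2.14 for Nupr1.

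In PTFC against HFD24 the calls of the pathway lists lay among the ATF4 and CHOP target genes, 1 higher and 4 lower of 37 (3.07% and 2.71% of all probes). Atf3, a stress-induced transcription factor, fell by 1.84 (SE 0.35, limma adjusted p = 0.0186), and Mthfd2, a mitochondrial folate enzyme, fell by 1.48 (SE 0.27, limma adjusted p = 0.0168). Nupr1 fell by 1.59 (SE 0.40, limma adjusted p = 0.0393) and Aldh18a1 by 1.06 (SE 0.27, limma adjusted p = 0.0412), while Tnfrsf10b, named after its values were seen, rose by 0.51 (limma adjusted p = 0.0458). Atf3 read 282, 510 and 913 in deposited intensity on the HFD24 arrays, 180, 246 and 148 on the PTFC arrays and 226, 265 and 262 on the ND arrays. Mthfd2 read 283, 287 and 689 on the HFD24 arrays, 180, 188 and 173 on the PTFC arrays and 261, 256 and 203 on the ND arrays. For both genes all PTFC arrays lay under all HFD24 arrays. Aldh18a1 read 173, 148 and 129 in deposited intensity on the HFD24 arrays and 131, 84.7 and 87.5 on the PTFC arrays, so these groups overlapped. On the authors' scale its difference was -0.59 and did not pass (limma adjusted p = 0.174). None of these 4 decreases passed without the third PTFC array, where 8 of all probes passed (Atf3 -1.65, limma adjusted p = 0.109; Mthfd2 -1.43, 0.0969; Nupr1 -1.32, 0.191; Aldh18a1 -0.94, 0.187). Without the first HFD24 array 1 passed, and without the second ND, the third HFD16, the second HFD24 or second PTFC array 2 did. Nupr1 also did not pass without the third HFD24 or the first PTFC array, nor Aldh18a1 without the first ND array. The single increase, of Tnfrsf10b, depended on all but 1 array, as the count of higher genes was 0 without any 1 of the other 11 and 2 without the third ND array. Over the alternatives the limma adjusted p ran from 0.00686 to 0.109 for Atf3, 0.00702 to 0.0969 for Mthfd2, 0.0108 to 0.191 for Nupr1 and 0.0176 to 0.187 for Aldh18a1. The lists of sensors, eIF2alpha regulators, chaperones and degradation genes had no call by limma in this comparison. Creb3l3, which encodes the liver factor CREBH, was at 0.46 (limma adjusted p = 0.0679), the kinase gene Eif2ak4 at -0.56 (0.0577), Txndc5 at -0.42 (0.218) and Man1b1 at -0.48 (0.137). In PTFC against ND none of the 107 genes passed by limma. The smallest unadjusted p values there were those of Herpud1 (0.00111), Vldlr, the VLDL receptor gene (0.00159, at 1.22), and Asns (0.00224).

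Markers of other cells moved with the same contrasts. In bulk liver, fewer cells of a type and less RNA per cell cannot be told apart. Hepatocyte markers were bright, with summed deposited intensities of 1572590 to 1635750 in ND, 1339550 to 1493280 in HFD16, 1357740 to 1571150 in HFD24 and 1576070 to 1795440 in PTFC over 7 of 8 listed genes. The sums of this and the other lists were not normalized, so group differences in them can include the shifts seen on the authors' scale. After normalization the hepatocyte list median was -0.12 in HFD16 and 0.06 in HFD24 against ND, and 0.11 in PTFC against HFD24. Of these 7 genes 1 fell in HFD24 against ND (7.96% of all probes were called lower), the amino acid enzyme gene Tat (-0.87, limma adjusted p = 0.0177). All 7 measured monocyte and macrophage markers of 8 listed rose in HFD24 against ND, where 8.5% of all probes were called higher. In HFD16 against ND 5 did, where 8.64% of all probes were called higher. The summed intensity of the 7 markers was 3353 to 4181 in ND, 4902 to 31160 in HFD16, 22731 to 28961 in HFD24 and 11301 to 17343 in PTFC. The first HFD16 array, at 4902, was close to ND in these markers. On that array Trib3, at 10.61, Asns, at 9.62, and Herpud1, at 17.30, lay near the other HFD16 arrays, whose macrophage sums were 31160 and 15781. These are values of 1 array, and they do not test the part of macrophages in the member differences. B and plasma cell markers, which matter because plasma cells are rich in Xbp1 and Derl3 RNA, summed to 15151 to 15916 in ND and 9564 to 12854 in HFD24 over 8 of 9 genes. Of these sums Sdc1, which hepatocytes also express, gave 4345 to 12635 over the 12 arrays, so the sums do not follow the other genes. In HFD24 against ND 2 of the 8 genes rose and 1 fell (8.5% and 7.96% of all probes were called higher and lower). Those that rose were Prdm1 (1.04, limma adjusted p = 0.0162) and Ms4a1 (0.87, 0.0398). The plasma cell receptor gene Tnfrsf17 was under the 25th percentile on 5 of 12 arrays. Pancreas acinar markers summed to 5519 to 7731 in ND and 4561 to 6185 in HFD24 over 4 of 7 genes, with Cpb1 under the 25th percentile on all 12 arrays. Of the other lists, 5 of 5 Kupffer cell, 5 of 7 stellate cell, 2 of 5 T and NK cell, 3 of 5 endothelial and 3 of 4 neutrophil markers rose in HFD24 against ND, where 8.5% of all probes were called higher, and 1 stellate cell marker fell. The neutrophil genes S100a8 and Cxcr2 lay under the 25th percentile on all 12 arrays, so the neutrophil count rests in part on such dim probes. The stellate cell genes Col3a1 and Col1a2 lay under it on 7 and 4 arrays. In PTFC against HFD24, where 2.71% of all probes were called lower, 1 of 7 macrophage, 2 of 7 stellate cell and 1 of 4 neutrophil markers fell, 1 of 8 B and plasma cell markers fell and 1 rose, and no marker of the other lists passed by limma. The part of other cells in the differences of the members and of Derl3, Atf3, Nupr1 and Mthfd2 was not tested.

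For each called member, the genes with the most similar profile over the 12 arrays were found as the root mean square difference of log2 values centred on the mean of each gene, among 15492 other genes outside the dimmest 25%. For Trib3 these were Inhbe, a hepatocyte gene of the activin family (0.22, where the profile of Trib3 itself had a spread of 0.51), Tob2 (0.25) and 2410022M11Rik (0.25). Inhbe was at 13.75 in ND, 12.80 in HFD16, 13.46 in HFD24 and 13.46 in PTFC. For Asns they were Tuba8 (0.57, against its own spread of 1.14), Fam222a (0.61) and Epop (0.67). For Herpud1 they were Cyp4v3 (0.16, against 0.31), Trib2 (0.17) and Fig4 (0.18).

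**Figure D4:**
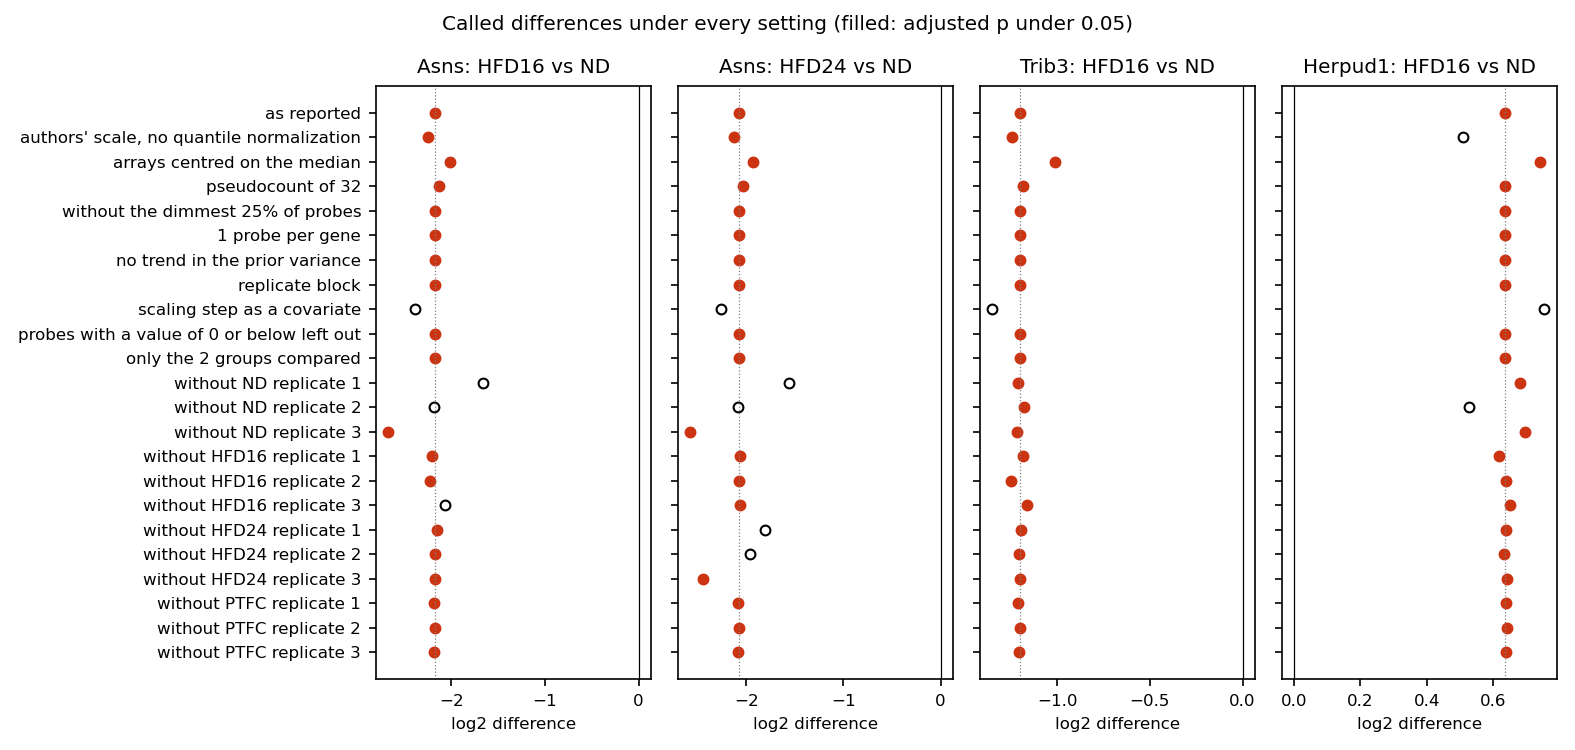
Log2 differences of the 4 member calls, as reported and under 22 alternatives of processing, each row 1 setting; filled points had an adjusted p under 0.05. Trib3 in HFD16 was filled in all rows but that of the scaling step, and Asns ran from -2.67 to -1.66 in HFD16 and from -2.58 to -1.56 in HFD24.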

How the data were processed

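Liver RNA was amplified, labelled with Cy5 and hybridised to single-colour arrays, per the labels' protocols. The authors deposited linear intensity values of 26423 probes on 12 arrays. The sources used here do not state how background was subtracted, arrays scaled or probes selected. Values of 0 or below made up 0.134%. The platform table gave 21876 probes 1 symbol each and named no gene for 4547. The RefSeq table held the gene ID of 21825 probes.

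Values below 0 were set to 0, and log2(intensity + 1) was quantile normalized. Adding 1 shrinks differences of the dimmest probes, but normalization can enlarge those of dim genes. That of Aldh18a1 in PTFC against HFD24 was -1.06 on this scale and -0.59 on the authors' scale. All 12 arrays were fitted per probe by group with limma 3.58.1 in R 4.3.3 (trend in the prior variance, two-sided, adjusted over all 26423 probes). The fit was tested on simulated data. A list count used the brightest probe of each gene, while the shares set beside it covered all probes, dim ones included. With 1 probe per gene, 3462 of 19084 genes passed in HFD16 against ND and 3483 in HFD24 against ND. Without the dimmest 25% of probes 4320 and 4274 probes passed there, in place of 4316 and 4348 of all 26423. The number of arrays limits the precision. An exact permutation test of 3 against 3 cannot go below 0.1 and was not used.

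The 8 members and the lists were chosen with earlier results of these data known. Named were all members, up to 4 genes per list of smallest p (HFD24 with ND, PTFC with HFD24) or 2 (HFD16 or PTFC with ND), up to 2 markers per cell type, and 3 genes of similar profile per called member. Alternatives were 10 settings and leaving out each of the 12 arrays.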

Additional observations from a re-analysis of the deposited data

How the results depend on the processing

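Of 880 member values recomputed under alternatives, 825 kept their direction and their side of the threshold, 13 lost a call, 5 gained one and 37 reversed, none of the reversed values being called. Of 1143 values of other pathway genes, 1046 kept both, 77 lost a call, 17 gained one and 3 reversed. Changed calls of the members are given with the results, those of other pathway genes only in part, and the cause was not tested. Among the latter, Creb3l2 in HFD24 against ND passed on the authors' scale (limma adjusted p = 0.0399), Creb3l3 in PTFC against HFD24 in 4 alternatives (lowest 0.0246), Vldlr in PTFC against ND in 3 (lowest 0.0355), and Eif2ak3 without the third ND array in HFD16 and HFD24 against ND (0.0206 and 0.015).

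On the authors' scale 3101 probes passed in PTFC against HFD24 in place of 1528 and 2 in HFD24 against HFD16 in place of 6. Atf6 then read -0.25 (HFD24 against ND), 0.25 (PTFC against HFD24), -0.049 (HFD16 against ND) and 0.0017 (PTFC against ND). In PTFC against HFD24 Xbp1 read 0.16, Ern1 0.28, Hyou1 0.066 and Traf2 0.025, and Atf4 read -0.026 in HFD24 against HFD16. The members passing in HFD16 against ND were 2 in place of 3. With arrays centred on their medians, 255 probes passed in PTFC against ND in place of 463 and 2 in HFD24 against HFD16. Atf6 read -0.052 (HFD24 against ND), Trib3 -0.26, Asns -0.078 and Eif2b1 -0.023 (PTFC against HFD24), Atf4 -0.061 (HFD24 against HFD16) and Ddit3 -0.075 (PTFC against ND). Without a trend in the prior variance 3 probes passed in HFD24 against HFD16, and with only the 2 groups compared 0 did by limma.

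With the scaling step as covariate, which shares much of the contrast of ND with the rest, 343 probes passed in HFD24 against ND (4348 without it), 59 in HFD16 against ND (4316), 25 in PTFC against ND and 9 in HFD24 against HFD16, and 0 members in any. Atf6 read -0.25 (HFD24 against ND) and -0.052 (HFD16 against ND), and Xbp1 0.12 (HFD24 against ND), 0.015 (PTFC against HFD24) and 0.13 (PTFC against ND).

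With the replicate number as a block, 611 probes passed in PTFC against HFD24 in place of 1528, 289 in PTFC against ND in place of 463, 3445 in HFD24 against ND and 3305 in HFD16 against ND, and the counts of members were as without it. The numbers only name the arrays: over 18 pairs of same-numbered arrays the correlation of deviations from group means was -0.287 to 0.14, against -0.195 to 0.261 over 36 other pairs.

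Leaving out 1 array at a time gave 1981 (without the first ND array) to 6486 probes in HFD24 against ND, 1436 (without the first ND array) to 5896 in HFD16 against ND, 8 (without the third PTFC array) to 2728 in PTFC against HFD24, 56 (without the first ND array) to 662 in PTFC against ND and 3 to 11 in HFD24 against HFD16. Members passing were 0 to 2 in HFD24 against ND, 1 to 4 in HFD16 against ND and 0 to 1 in PTFC against ND. The ranges of the values that reversed were, in HFD24 against ND, -0.013 to 0.33 for Atf6 and -0.31 to 0.16 for Ern1. In PTFC against HFD24 they were -0.30 to 0.017 for Atf4, -0.020 to 0.015 for Xbp1, -0.14 to 0.22 for Trib3 and -0.45 to 0.66 for Asns. In HFD16 against ND the range was -0.39 to 0.085 for Ern1, and in PTFC against ND -0.14 to 0.17 for Ddit3. In HFD24 against HFD16 they were -0.25 to 0.031 for Ddit3, -0.026 to 0.15 for Ern1, -0.15 to 0.14 for Atf4 and -0.28 to 0.35 for Asns.

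Atf6 and Ern1 lay under the array medians, and Atf6 close to the 25th percentile, which limits what can be said of them.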
